A study of Rattus norvegicus with 20 samples.

Results

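The 8 genes described here form 2 families, the heparan sulfate N-deacetylase/N-sulfotransferases Ndst1 to Ndst4 and the olfactomedins Olfm1 to Olfm4. They were found by their symbols among the 17168 genes measured by RNA-seq in the hippocampus of 20 female rats, 1 library per rat, and all 8 were listed. Ndst4 and Olfm3 were selected on their measured expression, since both were higher in drug-treated than in untreated transgenic rats of these data, so their values in that comparison are given as a description with no test. The other 6 genes entered by name, as paralogs, and were tested in both comparisons. In the comparison of genotypes all 8 were tested.

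The rats were 4 months old. WTNT rats were wild type and not treated. TGNT rats were TgF344-AD, a transgenic model of Alzheimer's disease that carries human APPsw and another human transgene not named here, both under the prion promoter, and they were not treated. TGTR rats were TgF344-AD rats fed chow with diazoxide (DZ), an opener of potassium channels, and dibenzoylmethane (DIB), a diketone found in licorice, from 52 days of age until tissue was taken. All other groups ate rodent chow, and no drug-fed wild-type rat is among these samples. One table held 5 WTNT and 5 TGNT rats (the genotype comparison), and another held 4 TGNT rats with libraries of their own and 6 TGTR rats (the treatment comparison), so the comparisons shared no library. The labels name the left hippocampus as the tissue, and the methods text names the right one.

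Heparan sulfate is a long sugar chain carried by proteoglycans of the cell surface and matrix, where its sulfate groups bind growth factors and their receptors. NDST enzymes make the first modification of the chain, replacing acetyl by sulfate on glucosamine, and the later epimerase and O-sulfotransferases act mainly on the stretches they have modified. Ndst1 and Ndst2 are made in most tissues, whereas Ndst3 and Ndst4 are mainly neural. Olfactomedins are secreted glycoproteins that share a domain named after a protein of olfactory mucus. Olfm1 to Olfm3 are neural and are known from work on AMPA-type glutamate receptor complexes, on the Nogo receptor and on axon growth, and Olfm4 is a gene of gut stem cells and neutrophils.

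Summed estimated counts ran from 5848458 to 9926088 per WTNT rat and from 6610498 to 8117561 per TGNT rat of the genotype comparison. In the treatment comparison they ran from 11151973 to 13481985 in TGNT and from 9215039 to 14175594 in TGTR. Levels are in RPM, the deposited read counts scaled to library size by the TMM method within each table, and 1 count was worth between 0.0706 and 0.171 RPM. App, whose reads included those of the transgene as the tables count them, lay between 1031 and 1160 RPM in WTNT and between 2071 and 2364 RPM in TGNT, and between 2216 and 2757 RPM in every rat of the treatment comparison, so the genotype labels held. In the treatment comparison 2 libraries stood apart: TGTR replicate 5, with a summed level of 9 choroid plexus markers of 2930 RPM against at most 140 RPM in the other 9 libraries, and TGTR replicate 4, with a summed level of 4 blood markers of 1686 RPM against at most 319 RPM.

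The regulatory sequence of Ndst4 and Olfm3 is shown first, since these genes carried the pattern the families were chosen for, together with that of Olfm2, the paralog nearest to them in the size of its difference under treatment. Each line is the 250 bases before the annotated start in RefSeq for the GRCr8 assembly, 5′ to 3′ along the gene's strand. A promoter entry was found for 7 of the 8 genes, the other being Ndst3. The windows lie at chr2:216461293-216461542 on the plus strand for Ndst4, at chr2:205598709-205598958 on the plus strand for Olfm3 and at chr8:27539662-27539911 on the minus strand for Olfm2. Capitals mark matches on either strand to any of 7 short motifs, listed after the sequences.
Ndst4: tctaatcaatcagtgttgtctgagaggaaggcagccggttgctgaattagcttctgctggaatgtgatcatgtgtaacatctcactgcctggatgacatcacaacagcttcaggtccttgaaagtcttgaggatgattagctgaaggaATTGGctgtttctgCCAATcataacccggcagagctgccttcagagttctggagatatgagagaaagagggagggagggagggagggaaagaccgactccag
Olfm3: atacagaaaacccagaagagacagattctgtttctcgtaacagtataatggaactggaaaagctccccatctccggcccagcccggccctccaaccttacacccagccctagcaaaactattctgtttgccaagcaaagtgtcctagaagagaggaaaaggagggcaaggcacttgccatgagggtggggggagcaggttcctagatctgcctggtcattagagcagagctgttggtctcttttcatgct
Olfm2: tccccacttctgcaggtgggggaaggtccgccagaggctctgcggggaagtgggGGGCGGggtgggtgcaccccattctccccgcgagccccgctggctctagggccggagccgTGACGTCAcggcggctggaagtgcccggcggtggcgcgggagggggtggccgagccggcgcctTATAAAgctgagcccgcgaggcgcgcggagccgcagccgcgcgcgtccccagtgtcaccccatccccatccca

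The motifs were the cAMP response element CRE (TGACGTCA), AP-1 (TGANTCA), the E-box (CACGTG), the CCAAT box (CCAAT, read as ATTGG on the other strand), the TATA box (TATAAA), the stress element CARE (TGATGNAAT) and the GC box (GGGCGG). Ndst4 held 2 CCAAT boxes, a motif present in 34.02% of 33469 RefSeq promoters cut to the same length. Olfm3 held none of the 7 motifs. Olfm2 held a CRE (1.59% of promoters), a TATA box (12.9%) and a GC box (30.5%). The Ndst4 and Olfm3 windows held 3 CG dinucleotides each, fewer than the median of 5 over all promoters, whereas Olfm2 held 28, Ndst2 27 and Olfm1 23. The remaining windows held 5 CG dinucleotides in Ndst1 and 2 in Olfm4. No motif of the 7 was found in both Ndst4 and Olfm3, which says only that these letters are not in both windows.

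In the treatment comparison, which asks what the DZ and DIB diet altered in transgenic rats, Ndst4 had 19.7, 12.9, 9.99 and 26.9 RPM in the 4 TGNT rats. In the 6 TGTR rats the lowest value was 24.1, the median 32.1 and the highest 39.2 RPM. The groups overlapped in 1 rat, since 5 of 6 TGTR rats lay above the highest TGNT rat and TGTR replicate 2 lay below it. The mean was 17.4 ± 7.53 RPM (SD, n = 4) in TGNT rats, against 32.1 ± 5.32 RPM (SD, n = 6) in TGTR, a fitted log2 fold change of 0.90 (SE 0.225), or 1.86-fold. These values chose the gene and carry no test. TGNT replicate 4 decided much of the size: without it the log2 fold change was 1.18, and without TGNT replicate 3, the lowest rat, it was 0.70. Without TGTR replicate 5 it was 0.93 and without TGTR replicate 4 it was 0.86.

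Olfm3, a secreted partner of synaptic receptors also named optimedin, had 22.3, 15.7, 21.3 and 32.7 RPM in the TGNT rats. In TGTR the lowest rat had 30.1, the median was 36.03 and the highest 44.3 RPM. Again 5 of 6 TGTR rats were above the highest TGNT rat, which was TGNT replicate 4 for both genes, and again TGTR replicate 2 was the rat below it. The mean was 23.0 ± 7.09 RPM (SD, n = 4) in TGNT rats, against 36.8 ± 5.13 RPM (SD, n = 6) in TGTR, a log2 fold change of 0.68 (SE 0.164), or 1.60-fold, given with no test. Without TGNT replicate 4 the log2 fold change was 0.89, without TGTR replicate 5 it was 0.66, and without TGTR replicate 4 it was 0.70.

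**Figure D1:**
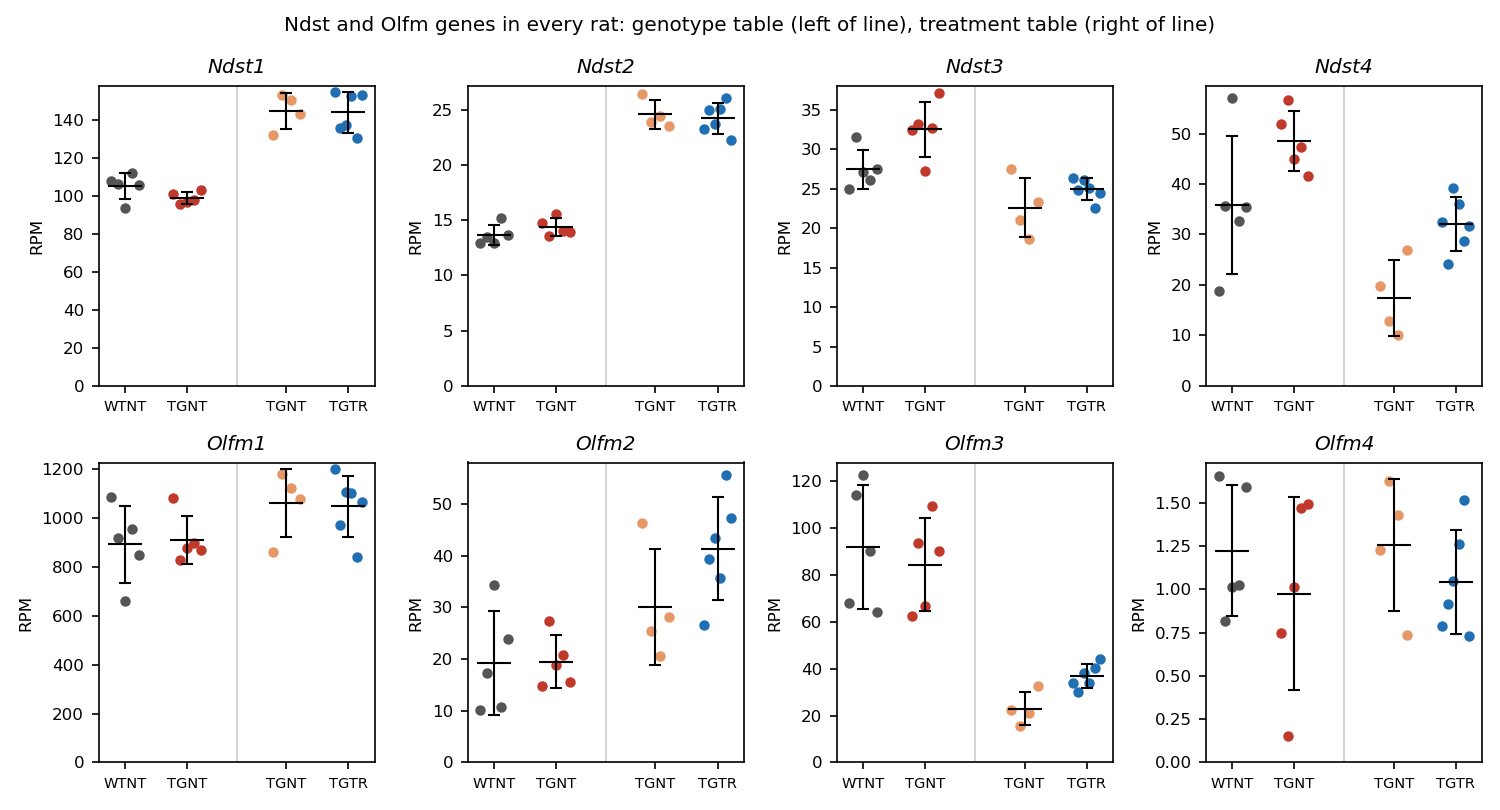
RPM (TMM-scaled read counts, linear axes starting at 0) of the 8 genes in every rat, with 1 point per rat, the group mean as a line and the SD as bars. The groups left of the grey line are WTNT and TGNT of the genotype comparison, those right of it TGNT and TGTR of the treatment comparison, scaled separately. Ndst4 and Olfm3 are the genes with 5 of 6 TGTR rats above every TGNT rat.

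Of the 6 paralogs, 0 passed an adjusted p under 0.05 with a fold of at least 1.5 in edgeR's quasi-likelihood test with Benjamini-Hochberg adjustment over all genes. Of all genes, 0 passed as well, a background of 0.0%. At an unadjusted p under 0.05, 0 of 6 paralogs and 5.66% of the 14884 genes with reads passed. With limma, with DESeq2 and with the other tests of edgeR (likelihood ratio, exact), 0 of 6 paralogs passed the thresholds. The share of all genes that passed is not given for those methods, so their count of 0 says nothing particular about the paralogs. The RPM of the groups overlapped in all 8 genes, and did not in 1.32% of genes with reads.

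Ndst1, the main NDST of most tissues, had 132 to 153 RPM in the TGNT rats and 130 to 155 RPM in the TGTR rats. Its log2 fold change was -0.00476 (SE 0.0636, adjusted p = 1, edgeR), with a 95% interval from -0.13 to 0.12. Ndst2, the NDST known from heparin synthesis in mast cells, had 23.6 to 26.5 RPM in the TGNT rats and 22.2 to 26.0 RPM in the TGTR rats, with a log2 fold change of -0.02 (SE 0.0643). These 2 genes showed no difference larger than the spread between rats, and their intervals left no room for a fold change of the size fitted for Ndst4.

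Ndst3, the neural paralog that resembles Ndst4 most in tissue range, had 27.5, 21.1, 18.6 and 23.3 RPM in TGNT. In TGTR the lowest value was 22.5, the median 25.0 and the highest 26.4 RPM, so every TGTR rat lay within the range of the TGNT rats. The log2 fold change was 0.15 (SE 0.0961, 95% interval from -0.04 to 0.33, adjusted p = 0.99, edgeR). It ranged from 0.06 without TGNT replicate 3 to 0.26 without TGNT replicate 1.

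Olfm1, also named noelin and by far the olfactomedin with most counts, had 862 to 1179 RPM in the TGNT rats and 842 to 1200 RPM in the TGTR rats, a log2 fold change of -0.01 (SE 0.101, 95% interval from -0.21 to 0.18). Olfm2, a secreted protein of AMPA receptor complexes, had 46.3, 25.4, 20.5 and 28.2 RPM in TGNT, and in TGTR the lowest rat had 26.6, the median was 41.5 and the highest 55.7 RPM. Its groups overlapped widely because TGNT replicate 1 lay above 4 of the 6 TGTR rats. The log2 fold change of Olfm2 was 0.46 (SE 0.222, unadjusted p = 0.0589, adjusted p = 0.99, edgeR), with a 95% interval from 0.03 to 0.89 that included the value fitted for Olfm3. That interval uses a normal limit and is too narrow for this test, so its lower end above 0 shows no difference. Without TGNT replicate 1 the log2 fold change was 0.75 (unadjusted p = 0.0017, adjusted p = 0.271), and without TGNT replicate 3 it was 0.31. Olfm4 was close to the limit of detection, at 8 to 19 counts per rat and 0.730 to 1.63 RPM, and its log2 fold change of -0.28 (SE 0.288) could not be told from 0 at this depth.

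**Figure D2:**
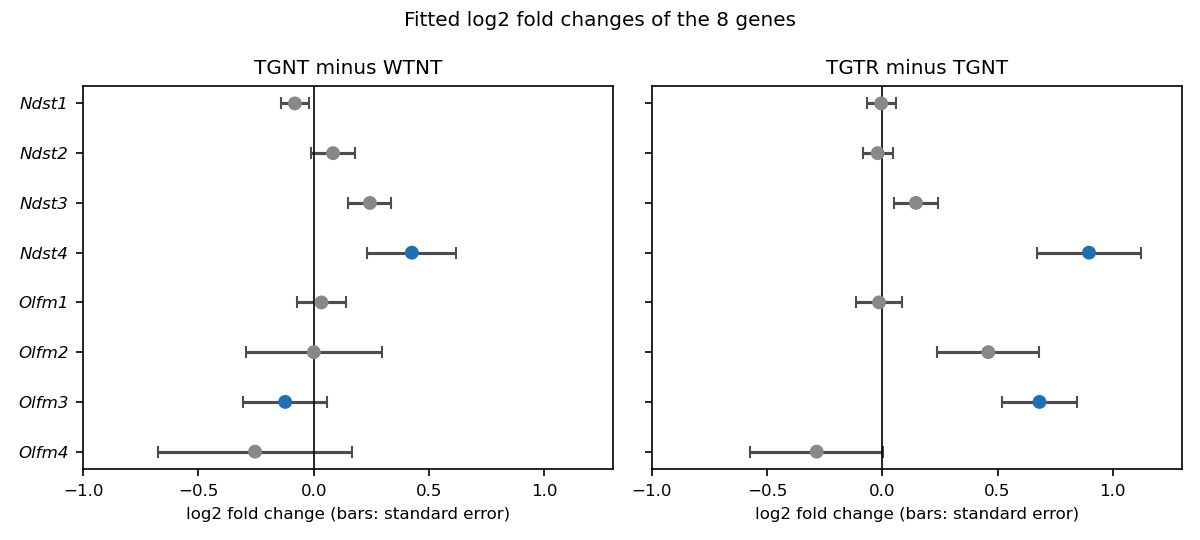
Fitted log2 fold change of the 8 genes in the genotype comparison (left, TGNT minus WTNT) and the treatment comparison (right, TGTR minus TGNT), with standard errors as bars and a line at 0. Ndst4 and Olfm3, in blue, were 0.90 and 0.68 under treatment and 0.43 and -0.12 by genotype, while Ndst1, Ndst2 and Olfm1 lay between -0.08 and 0.08 on both sides.

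Set against their paralogs within each rat, the 2 genes differed in what the comparison showed. The log2 of Ndst4 minus the mean log2 of Ndst1, Ndst2 and Ndst3 was -1.40 ± 0.592 (SD, n = 4) in TGNT rats, against -0.48 ± 0.232 (SD, n = 6) in TGTR. The difference of 0.92 (SE 0.311) was about that of Ndst4 itself, and 5 of 6 TGTR rats lay above every TGNT rat. The choice of Ndst3 alone as the reference gave 0.81. For Olfm3 against Olfm1 and Olfm2 the difference was 0.48 (SE 0.230), with 2 of 6 TGTR rats above every TGNT rat. Against Olfm1 alone it was 0.73 and against Olfm2 alone 0.22 (SE 0.324), so the Olfm3 difference was smaller than the spread between rats once Olfm2 was the reference. The level of such a ratio depends on transcript length and has no meaning between genes, and as these ratios contain the 2 chosen genes they carry no test here.

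**Figure D3:**
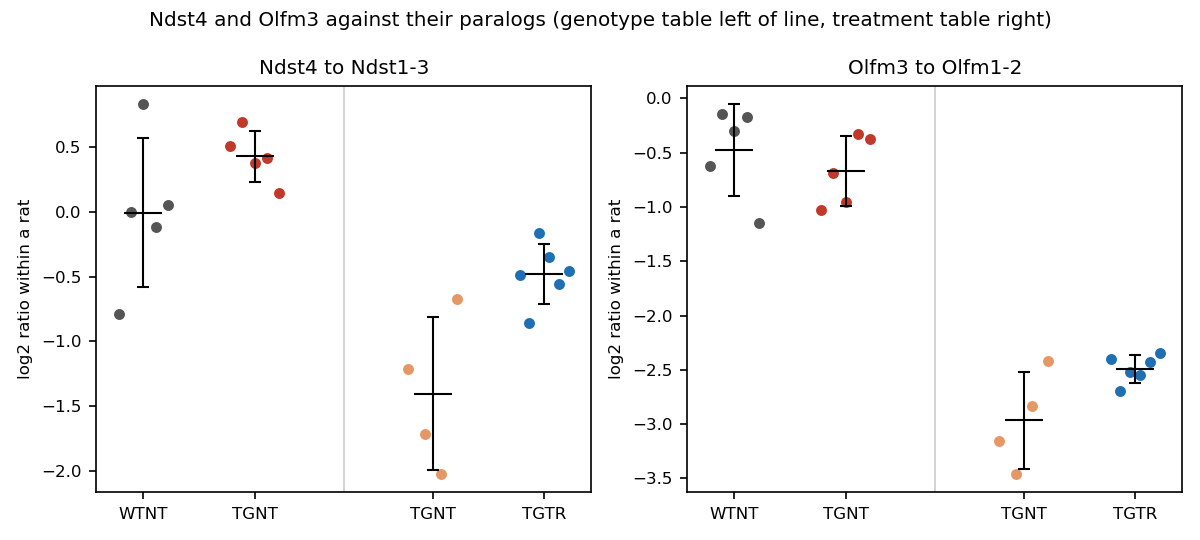
Log2 ratio within each rat of Ndst4 to the mean of Ndst1 to Ndst3 (left) and of Olfm3 to the mean of Olfm1 and Olfm2 (right), with 1 point per rat, the mean as a line and the SD as bars, for the genotype comparison left of the grey line and the treatment comparison right of it. The Ndst4 ratio was -1.40 in TGNT and -0.48 in TGTR, and the Olfm3 ratio was -2.97 and -2.49.

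The genotype comparison asks what the transgenes altered in untreated rats, and there 0 of 8 genes passed the thresholds of edgeR's quasi-likelihood test, against 2 genes or 0.0116% of the table. Every member's two-sided adjusted p was 1. At an unadjusted p under 0.05, 2 of 8 passed, Ndst3 and Ndst4, both higher in TGNT and none lower, against 3.78% of the 14659 genes with reads, 2.02% higher and 1.76% lower. The groups of all 8 genes overlapped, while 0.6% of genes with reads had groups that did not.

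Ndst4 had 18.9, 35.6, 57.1, 32.6 and 35.5 RPM in the 5 WTNT rats and 51.9, 56.7, 45.0, 47.4 and 41.6 RPM in the 5 TGNT rats. All TGNT rats lay above 4 of the WTNT rats and below WTNT replicate 3, and the lowest rat of the table was WTNT replicate 1. The mean was 35.9 ± 13.7 RPM in WTNT and 48.5 ± 5.92 RPM in TGNT (SD, n = 5 each), a log2 fold change of 0.43 (SE 0.193, unadjusted p = 0.0431, adjusted p = 1, edgeR). Without WTNT replicate 3 it was 0.65 (SE 0.148, unadjusted p = 0.000524, adjusted p = 0.634), and without WTNT replicate 1 it was 0.27 (unadjusted p = 0.0883).

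Ndst3 had 25.0, 31.6, 27.1, 26.1 and 27.6 RPM in WTNT and 32.5, 33.2, 27.3, 32.7 and 37.1 RPM in TGNT. In 4 of 5 TGNT rats it was above the highest WTNT rat, and TGNT replicate 3 was within their range. The log2 fold change was 0.24 (SE 0.0933, unadjusted p = 0.0195, adjusted p = 1, edgeR) and lay between 0.18 and 0.30 when any 1 rat was left out, with an unadjusted p between 0.00529 and 0.0786.

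The widely made NDST genes differed less. Ndst1 had 93.7 to 112 RPM in the WTNT rats and 95.5 to 103 RPM in the TGNT rats, a log2 fold change of -0.08 (SE 0.0608, 95% interval from -0.20 to 0.04). Ndst2 had 12.9 to 15.2 RPM and 13.6 to 15.6 RPM, a log2 fold change of 0.08 (SE 0.0970). The difference between genotypes in the ratio of Ndst4 to the other 3 NDST genes was 0.43 (SE 0.273, exact permutation test, two-sided p = 0.143, adjusted p = 0.286 over 2 ratios), with 5 rats a group. Without WTNT replicate 3 it was 0.64 (exact p = 0.0159), and without WTNT replicate 1 it was 0.24 (exact p = 0.286).

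Olfm3 had 68.3, 114, 123, 90.3 and 64.4 RPM in WTNT and 62.4, 93.8, 66.7, 109 and 90.2 RPM in TGNT, so the genotypes covered the same range. The log2 fold change was -0.12 (SE 0.183, 95% interval from -0.48 to 0.24), and the ratio of Olfm3 to Olfm1 and Olfm2 differed by -0.19 (exact permutation test, two-sided p = 0.397, adjusted p = 0.397). The sign for Olfm3 in the genotype comparison was thus opposite to that under treatment, and the difference between the comparisons was not tested.

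Olfm2 varied widely between rats of a group, with 10.1, 17.3, 34.4, 10.8 and 23.9 RPM in WTNT and 14.9, 27.4, 18.9, 20.8 and 15.6 RPM in TGNT. Its group means were alike, 19.3 ± 10.1 and 19.5 ± 5.06 RPM (SD, n = 5 each), but the 95% interval of the log2 fold change, from -0.58 to 0.58, left room for a difference of that size either way. Olfm1 had 660 to 1088 RPM in the WTNT rats and 828 to 1081 RPM in the TGNT rats, a log2 fold change of 0.03 (SE 0.107). Olfm4 was at 1 to 12 counts per rat and 0.151 to 1.66 RPM, too few to show a difference at this depth (log2 fold change -0.25, SE 0.421).

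The spread between rats of one group set the members apart from each other. On the log2 scale, with 0.1 added to each RPM, the SD within groups was 0.419 for Ndst4 in the genotype comparison and 0.432 in the treatment comparison, larger than that of 98.4% and 98.0% of genes of like count, meaning a mean count within 1.5-fold. Olfm2 had an SD of 0.586 and 0.419, larger than 98.6% and 98.3%, and Olfm3 had 0.384 and 0.309, larger than 98.3% and 95.7%. The other NDST genes were steady: the SD of Ndst2 was 0.0870 and 0.0802, larger than 1.08% and 12.2% of like genes, and that of Ndst1 was 0.0751 and 0.103, larger than 15.8% and 63.6%. Ndst4, Olfm2 and Olfm3 therefore had the widest spread of the 7 genes above the detection limit in both tables, and their fold changes the largest errors.

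**Figure D4:**
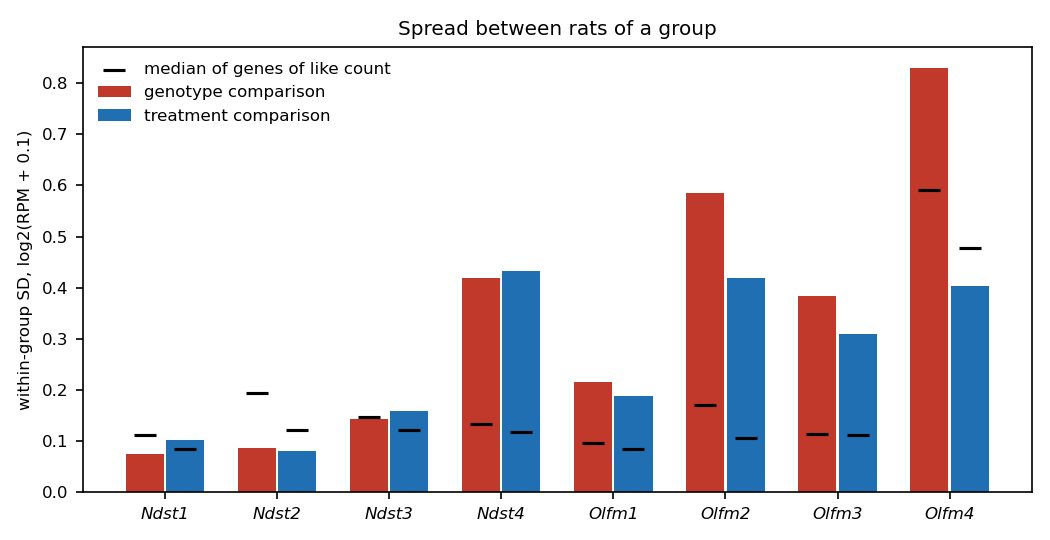
SD between rats within groups of log2(RPM + 0.1) for the 8 genes in the genotype (red) and treatment (blue) comparisons, with the median SD of genes of like count as a black bar. Ndst4 was at 0.419 and 0.432 and Olfm2 at 0.586 and 0.419, against 0.0870 and 0.0802 for Ndst2.

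This spread was shared between some members. Over the 10 rats of each table, as deviations from the group mean, 28 pairs of members gave 56 relations, of which 3 had a permutation p of Pearson's r adjusted over the 56 under 0.05 and 0 of Spearman's rho, whose smallest adjusted p was 0.134. The 56 include relations of Ndst4 and Olfm3 under treatment, which are not among the 3 and are given no p here. Olfm1 and Olfm2 ran opposite to each other, with Pearson's r = -0.882 in the genotype comparison (permutation p = 0.00115, adjusted p = 0.0322, n = 10) and Spearman's rho = -0.830 (permutation p = 0.00914, adjusted p = 0.171). In the treatment comparison r was -0.843 (permutation p = 0.00664, adjusted p = 0.093) and rho was -0.855 (permutation p = 0.00478, adjusted p = 0.134). Without the 2 rats farthest out in Olfm1 the r values were -0.694 and -0.569.

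Ndst1 moved with Olfm1 and against Olfm2. Ndst1 with Olfm2 had r = -0.870 in the genotype comparison (permutation p = 0.000840, adjusted p = 0.0322, n = 10; rho = -0.855, permutation p = 0.00364, adjusted p = 0.134) and -0.748 in the treatment comparison (permutation p = 0.0203, adjusted p = 0.177; rho = -0.648, permutation p = 0.0490, adjusted p = 0.305). The r values without the 2 farthest rats were -0.722 and -0.447. Ndst1 with Olfm1 had r = 0.803 (permutation p = 0.0288, adjusted p = 0.201; rho = 0.648, permutation p = 0.0599, adjusted p = 0.335) and 0.860 (permutation p = 0.00228, adjusted p = 0.0426; rho = 0.721, permutation p = 0.0287, adjusted p = 0.305), and 0.569 and 0.680 without the 2 farthest rats. Of the 28 pairs, 20 had the same sign in both tables.

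Ndst4 and Olfm3, the genes that stood out together under treatment, had r = 0.508 in the genotype comparison (permutation p = 0.215, adjusted p = 0.548, n = 10; rho = 0.370, permutation p = 0.341, adjusted p = 0.602). In the treatment comparison r was 0.651 and rho was 0.527, given with no test, since the values of these rats chose both genes. Without the 2 rats farthest out in Ndst4, WTNT replicates 1 and 3, the first r was -0.0408, so in the genotype comparison the relation rests on these rats. Without TGNT replicates 3 and 4 the second r was 0.543. In the genotype comparison a shared deviation of these genes beyond the group means was not shown at this number of rats.

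**Figure D5:**
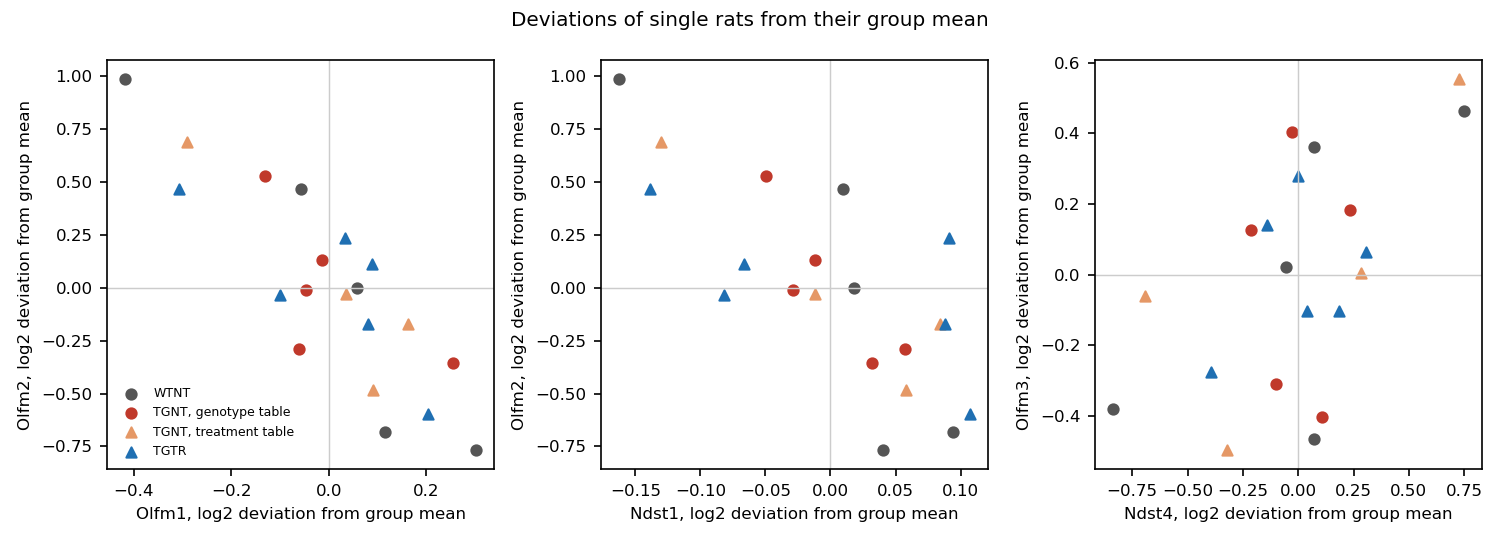
Deviation of each rat from its group mean in log2(RPM + 0.1) for Olfm2 against Olfm1 (left), Olfm2 against Ndst1 (middle) and Olfm3 against Ndst4 (right), with circles for the genotype and triangles for the treatment comparison. The left pair ran opposite (r = -0.882 and -0.843), as did the middle pair (-0.870 and -0.748), and the right pair had r = 0.508 and 0.651.

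The genes whose deviations from the group means were most like those of Ndst4 were ranked over 11341 genes, as a description. The rank used the lower of their 2 correlations, each over 10 rats that were scaled together. Nov, a secreted matricellular protein, came first (r = 0.910 and 0.926), followed by Lphn2, a latrophilin, that is, an adhesion receptor with an olfactomedin domain (0.914 and 0.872). Myh3 (0.858 and 0.799), Dclk1, a microtubule-associated kinase (0.875 and 0.783), and Atp2a3 (0.757 and 0.757) followed. Olfm3 ranked at 152 in this list. The genes most like Olfm3 were Copg2, a coatomer subunit (0.906 and 0.889), Gabrb2, a GABA-A receptor subunit (0.865 and 0.883), Orc3 (0.909 and 0.838), Fat3 (0.863 and 0.836) and Strbp (0.860 and 0.834), and Ndst4 ranked at 298.

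The rest of the heparan sulfate pathway was taken from 2 lists. Of 27 chain enzymes in the tables, 0 passed the thresholds in either comparison. Xylt1, Glce (the epimerase), Hs3st4 and Slc35b3 were listed as well but were not analysed here. Of all genes, 0.0% passed under treatment and 0.0116% by genotype, so a count of 0 says nothing particular about the list. At an unadjusted p under 0.05 none did by genotype, and under treatment 1 was higher and 1 lower, against 3.43% and 2.23% of all genes with reads. The higher one was Hs3st2, a neuronal 3-O-sulfotransferase, at 7.69 ± 2.099 RPM in TGNT and 11.1 ± 1.56 RPM in TGTR (log2 fold change 0.53, SE 0.168, unadjusted p = 0.00732, adjusted p = 0.957, edgeR). The lower one was Sulf2, which removes 6-O-sulfates from finished chains, at 299.7 ± 32.4 RPM and 252.7 ± 29.0 RPM (log2 fold change -0.24, SE 0.0913, unadjusted p = 0.0196, adjusted p = 0.964). By genotype the smallest p values were those of Hpse, heparanase, which cuts the chains (log2 fold change 0.46, SE 0.265, unadjusted p = 0.107), and of B3gat3, which completes the linker to the core protein (log2 fold change -0.17, SE 0.109, unadjusted p = 0.142). The median log2 fold change of the chain enzymes was 0.01 under treatment and -0.01 by genotype, against 0.000246 and 0.01 over all genes.

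Among 11 core proteins that carry the chains, 0 passed the thresholds, beside 0.0% of all genes under treatment and 0.0116% by genotype. Gpc6 and Hspg2 were listed but not analysed here. Under treatment their summed level was 893 to 920 RPM in the TGNT rats and 833 to 890 RPM in the TGTR rats. These groups did not overlap, by a narrow gap, as in 1.32% of single genes with reads. The sums of the other pathway and marker lists overlapped. The median log2 fold change of the core proteins was -0.05. Of their 10 members of mean count 10 or more, 7 were lower in TGTR, beside 6000 of 12029 of all such genes. None had an unadjusted p under 0.05, beside 5.66% of all genes with reads. The smallest were those of the syndecan Sdc1, at under 1 RPM in both group means (log2 fold change 1.01, SE 0.493, unadjusted p = 0.0619), and the glypican Gpc2 (log2 fold change -0.44, SE 0.237, unadjusted p = 0.0864). By genotype 1 core protein of 11, Col18a1, the collagen that holds endostatin, had an unadjusted p under 0.05, against 3.78% of all genes with reads, at 8.84 ± 2.44 RPM in WTNT and 5.94 ± 1.17 RPM in TGNT (log2 fold change -0.56, SE 0.197, unadjusted p = 0.0129, adjusted p = 1, edgeR), followed by Sdc1 (log2 fold change 0.82, SE 0.479, unadjusted p = 0.124).

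Genes linked to the olfactomedins fell into 3 lists, and 0 of their genes passed the thresholds in either comparison. Of all genes, 0.0% passed under treatment and 0.0116% by genotype. Of 9 other genes with an olfactomedin domain, 2 had an unadjusted p under 0.05 under treatment, against 5.66% of all genes with reads, and none did by genotype, against 3.78%. Lphn2 had 54.5 ± 14.6 RPM in TGNT and 72.5 ± 9.07 RPM in TGTR (log2 fold change 0.42, SE 0.157, unadjusted p = 0.0203, adjusted p = 0.964, edgeR), while the other 2 latrophilins had log2 fold changes of -0.04 (Lphn1) and 0.08 (Lphn3). Gldn, gliomedin, had 5.98 ± 0.363 and 4.53 ± 0.818 RPM (log2 fold change -0.39, SE 0.148, unadjusted p = 0.0203, adjusted p = 0.964). The smallest p values by genotype were those of Olfml2b (log2 fold change -0.50, SE 0.278, unadjusted p = 0.0912) and Myoc, myocilin, which was at under 1 RPM (unadjusted p = 0.120).

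Of 14 AMPA receptor and auxiliary subunits, again beside 5.66% and 3.78% of all genes, Cacng3 was the 1 with an unadjusted p under 0.05 under treatment (log2 fold change 0.29, SE 0.122, unadjusted p = 0.0333, adjusted p = 0.964, edgeR) and Cnih3 the 1 by genotype (log2 fold change 0.54, SE 0.186, unadjusted p = 0.0105, adjusted p = 1). Next came Shisa6 under treatment (log2 fold change -0.28, unadjusted p = 0.166) and Cnih2 by genotype (log2 fold change -0.24, unadjusted p = 0.169). The pore-forming subunits Gria1 and Gria2 had log2 fold changes of -0.10 and 0.03 under treatment. Shisa9, Gsg1l and Frrs1l of that list were not analysed here. Of 9 genes of the Nogo receptor complex, none had an unadjusted p under 0.05 in either comparison. The median log2 fold changes under treatment were 0.09 for the olfactomedin-domain list, -0.04 for the AMPA receptor list and 0.05 for the Nogo receptor list, and by genotype 0.04, -0.05 and -0.04. The smallest p of the Nogo receptor list under treatment was that of Omg (log2 fold change 0.10, unadjusted p = 0.0810), followed by Mag (log2 fold change 0.24, unadjusted p = 0.163), and by genotype those were Rtn4rl2 (log2 fold change -0.33, unadjusted p = 0.0942) and Mag (log2 fold change -0.27, unadjusted p = 0.161).

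Markers of cells and regions that a dissected hippocampus can hold were not even across the treatment groups. Of all genes with a mean count of 10 or more, 6029 of 12029 were higher in TGTR, so a list of few markers can fall all on 1 side. All 8 listed markers of subiculum and adjoining cortex were higher in TGTR, 3 of them with an unadjusted p under 0.05 against 3.43% of all genes with reads, and their summed level was 319 to 370 RPM in the TGNT rats and 350 to 514 RPM in the TGTR rats. Tle4 and Fn1 had the most counts of them, at 93.3 to 106 and 83.6 to 114 RPM in TGNT against 107 to 111 and 81.4 to 185 RPM in TGTR, and Tshz2 was not analysed here. Without TGTR replicate 5 the highest TGTR sum was 419 RPM and 6 of the 8 were higher. Choroid plexus markers were carried by 2 rats, with sums of 7.54 to 18.4 RPM in the TGNT rats, of 2930 and 140 RPM in TGTR replicates 5 and 6, and of 5.43, 3.95, 5.25 and 7.18 RPM in the other 4 TGTR rats, each below every TGNT rat. With all rats 9 of 9 were higher in the group mean, and without replicate 5 it was 7 of 9. Blood markers, higher in 4 of 4, had sums of 199 to 309 RPM in the TGNT rats, 1686 RPM in TGTR replicate 4 and 231 to 319 RPM in the other TGTR rats. Markers of CA2 and CA3 pyramidal cells were all lower, 3 of 3 and 3 of 3, with CA3 sums of 295 to 362 RPM in the TGNT rats and 258 to 331 RPM in the TGTR rats. Of the lists' members with a mean count of 10 or more, those of interneurons (6 of 6), endothelium (4 of 4) and thalamus and habenula (5 of 5) were all higher, with TGTR replicate 5 or 4 left out as well, and oligodendrocyte markers were higher in 8 of 8, or in 6 of 8 without replicate 4. At an unadjusted p under 0.05 (edgeR), 5 choroid plexus, 2 endothelium, 1 interneuron and 1 thalamus and habenula marker were higher, and 1 CA2 marker was lower. Of all genes with reads, 3.43% were higher and 2.23% lower at that p. Without TGTR replicate 5 those higher were 0, 1, 0 and 1, while 1 CA1, 2 oligodendrocyte and 2 blood markers were then higher at that p. The count for the subiculum list stayed at 3. The share of all genes without that rat is not given. Other lists turned with TGTR replicate 5. With all rats 0 of 5 astrocyte, 0 of 6 mature neuron, 2 of 2 oligodendrocyte precursor, 4 of 5 fibroblast, 1 of 5 microglia and 1 of 3 dentate granule markers were higher, and without it 3, 1, 1, 0, 3 and 3 were. CA1 markers were higher in 3 of 4 either way. All these ranges overlapped. Their part in the Ndst4 and Olfm3 values was not tested, and in bulk tissue fewer cells of a type and less RNA per cell cannot be told apart.

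By genotype, the sums of the subiculum markers were 338 to 452 RPM in the WTNT rats and 349 to 417 RPM in the TGNT rats, and 3 of 8 were higher in TGNT. The highest of the 10 sums, 452 RPM, was that of WTNT replicate 3, the rat with most Ndst4, Olfm2 and Olfm3, and the lowest, 338 RPM, was that of WTNT replicate 1, the rat with least Ndst4 and Olfm2. These rats stood at the ends of other lists too. The thalamus and habenula sum was lowest in WTNT replicate 1 (83.7 RPM). It was highest in WTNT replicate 3 (123.2 RPM), but hardly above TGNT replicate 1 (123.1 RPM). The interneuron sum was likewise highest in WTNT replicate 3 (646 RPM) and lowest in WTNT replicate 1 (502 RPM). WTNT replicate 3 had the lowest dentate granule sum (76.7 RPM, against 142 to 279.9 RPM in the other 9 rats), the lowest CA2 sum (125 RPM) and the highest oligodendrocyte sum (10151 RPM), and WTNT replicate 1 had the highest dentate granule sum (279.9 RPM) and the highest CA2 sum (225 RPM). Of all genes with a mean count of 10 or more, 5405 of 11356 were lower in TGNT. Markers of CA1, CA2, CA3 and dentate granule cells were all lower (4 of 4, 3 of 3, 3 of 3 and 3 of 3). Those of microglia (5 of 5), fibroblasts (5 of 5) and oligodendrocyte precursors (2 of 2) were all higher. Other lists had markers on both sides. Those higher were 4 of 5 for thalamus and habenula, 5 of 6 for interneurons and 3 of 4 for blood. For astrocytes 3 of 5 were higher, for endothelium 2 of 4 and for mature neurons 2 of 6. Oligodendrocyte markers were lower in 8 of 8, with sums of 4529 to 10151 RPM in the WTNT rats and 4253 to 7687 RPM in the TGNT rats, and 1 choroid plexus marker had a mean count of 10 or more. At an unadjusted p under 0.05 (edgeR), 2 oligodendrocyte markers and 1 choroid plexus marker were lower, beside 1.76% of all genes with reads. The ranges of all these sums overlapped, and the part of the markers in the Ndst3 and Ndst4 values was not tested.

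The untreated transgenic rats of both tables carried the same label, and their values can be set side by side only with the reserve that the tables were scaled apart. Ndst4 had 41.6 to 56.7 RPM in the TGNT rats of the genotype comparison and 9.99 to 26.9 RPM in those of the treatment comparison, and Olfm3 had 62.4 to 109 and 15.7 to 32.7 RPM. As the log2 of the group means these were differences of -1.57 and -1.89, and 0.794% and 0.256% of 11342 genes lay at least as far from 0. The paralogs did not share them: the same difference was -0.53 for Ndst3, 0.55 for Ndst1, 0.77 for Ndst2, 0.22 for Olfm1 and 0.59 for Olfm2, against an SD over all genes of 0.596. On counts scaled to the library total alone, with no TMM factor, the 2 values were -1.60 and -1.92. In Olfm3 every TGTR rat, at 30.1 to 44.3 RPM, also lay below every rat of the genotype comparison, and in Ndst4 every TGTR rat lay below the TGNT rats of that comparison. The table cannot be told apart from the rats in it.

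The counts of Ndst3 and Ndst4 share reads. Their estimated counts were not whole in 11 of 20 libraries, the same 11 for both, and the sum of both was whole within 0.015 in 20 of 20 libraries. The estimate of Ndst4 was at most 0.34 reads from a whole number, and at most 0.06 in the treatment comparison. Its counts in the treatment comparison were 133 to 486 per rat. The distance from a whole number does not show how many reads the 2 genes share. The other 6 members had whole counts in every library. In the gene order of GRCr8 the 2 genes lie on the same chromosome with 3 protein-coding genes between them.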

How the data were processed

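Per the labels and the submitters' processing notes, RNA was made into strand-specific poly(A) libraries (Kapa Stranded mRNA kit), and the authors demultiplexed reads with bcl2fastq 2.17, aligned them with Bowtie2 2.1.0 and estimated gene levels with RSEM 1.2.15 on build rn6. The deposited expected counts, whole for most genes, were used as estimated counts. The deposited RPM signal values had been scaled by the authors to library size with TMM factors of edgeR, separately in each table.

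Expected counts were rounded and tested for all 17168 genes within each table with edgeR 4.0.16 (TMM, quasi-likelihood test, R 4.3.3) and Benjamini-Hochberg adjustment, a call needing adjusted p under 0.05 and a fold of at least 1.5, a threshold the study also used. Intervals are the log2 fold change ± 1.96 SE. They use a normal limit, so with few rats they are narrower than 95% intervals of the quasi-likelihood test. The fit was tested on simulated data. Levels, ratios and deviations used RPM, with 0.1 added before log2. Ratios were compared by an exact permutation test (the smallest two-sided p is 0.00794 for 5 against 5). Relations between members used 100000 permutations of rats within groups. Genes most like Ndst4 and Olfm3 were the first 5 by the lower of both tables' r, with a mean count of at least 10.

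Alternatives were RLE or library size scaling, a filter on low counts, DESeq2 1.42.0, limma 3.58.1 on log2(RPM), the likelihood ratio and exact tests of edgeR, a block on replicate number and each rat left out. The members, the 5 pathway lists and the 16 marker lists were chosen with earlier results of these data known, so lists are described by counts and medians alone. From each pathway list the genes past the thresholds or else the 2 of lowest unadjusted p were named, and from the subiculum marker list the 2 with most counts. Lphn1, Lphn3, Gria1 and Gria2 were named after their values were seen, for their families. Labels do not say whether rats shared a litter or a run. Coordinates are those of the RefSeq GRCr8 table, not of rn6, and serve only the printed promoters. One transgene is not reported here.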

Additional observations from a re-analysis of the deposited data

Results flagged for a closer look

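Olfm1 had 1081 RPM in TGNT replicate 1 of the genotype comparison, far from the other 4 TGNT rats, the nearest of which had 898 RPM. The gap was 0.725 of the range of the group, above Dixon's limit for 5 samples. Over the 40 groups of members and ratios tested in this way chance gives about 2 such samples.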

How the results depend on the processing

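Over 457 recomputed values, 431 kept their direction and side of the threshold, or moved by less than the spread between rats. The number of members, paralogs and pathway genes past the thresholds was 0 under every alternative run, where the share of all genes is not given. Without WTNT replicate 3 the genotype difference in the Ndst4 ratio passed (0.642, exact p = 0.0159), over a range of 0.238 to 0.642 when 1 rat was left out. The 25 values that changed sign belong to log2 fold changes near 0. Olfm2 by genotype was -0.00920 with RLE scaling and -0.00850 with the filter on low counts, and under treatment library size scaling gave 0.0317 for Ndst1, 0.0176 for Ndst2 and 0.0218 for Olfm1. With 1 rat left out the ranges were -0.0694 to 0.108 (Olfm1 by genotype), -0.160 to 0.306 (Olfm2 by genotype), -0.0451 to 0.0232 (Ndst1 under treatment), -0.0415 to 0.0182 (Ndst2 under treatment) and -0.101 to 0.0430 (Olfm1 under treatment).

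Replicate numbers are shared between groups, but same-numbered rats did not deviate together (correlations of -0.179 to 0.288 by genotype and -0.521 to 0.0799 under treatment). A replicate block gave log2 fold changes under treatment of 0.98 for Ndst4 and 0.60 for Olfm3 and turned the sign of Ndst1 (0.00320) and Olfm1 (0.0517). Olfm4, at 1 to 19 counts, is limited by depth, and Olfm4 by genotype was dropped by the filter on low counts.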
